A study of Mus musculus with 10 samples.

Results

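Mouse embryonic fibroblasts (MEFs) homozygous for a deletion in Dnttip1 (DNTTIP1-/-) were compared with wild-type MEFs of the same family (DNTTIP1+/+) by RNA-seq. The comparison used 4 of the 10 libraries of the series, 2 of each genotype, and 16036 of the 53801 genes in the deposited table, namely those with a mean of at least 10 normalized counts over these 4 libraries. DNTTIP1-/- lines carried the DNTTIP1-del1 allele, made by CRISPR/Cas9 in exon 2 of Dnttip1, and DNTTIP1+/+ lines were the wild types of that family. All were from C57BL/6 embryos (C57BL/6J in the methods of the study) at embryonic day 13.5, grown from the body after the head, liver and heart were taken away, and no agent was applied to any line. The remaining 6 libraries, 3 MIDEAS-/- and 3 MIDEAS+/+ lines of a second family, entered the fit to share 1 estimate of the spread and served as a second knockout of the same complex. With 2 lines of a genotype, each line is a large share of the evidence, and the labels name neither the embryo nor the litter behind a line, so the p-values measure the spread between these libraries.

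DNTTIP1 is a subunit of MiDAC, a histone deacetylase complex in which it binds HDAC1 or HDAC2 together with the scaffold protein MIDEAS, the product of Elmsan1. Class I histone deacetylases remove acetyl groups from histone tails and are mostly known as parts of repressor complexes, and MiDAC is one of several that share the same catalytic subunits. Dnttip1 itself has no catalytic activity and is known for dimerizing the complex and for binding DNA and nucleosomes. MiDAC was first isolated from mitotic cells, and in embryonic stem cells it is known for a role in the expression of neural genes.

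The targeted exon is shown because it is where these lines were edited. Exon 2 of Dnttip1 is a coding exon of 71 bases among 13 exons (mm10, chr2:164746707-164746777, plus strand). Its sequence in the reference transcript is in capitals below, between the last 20 bases of exon 1 and the first 20 bases of exon 3 in lower case.
Dnttip1 exon 2: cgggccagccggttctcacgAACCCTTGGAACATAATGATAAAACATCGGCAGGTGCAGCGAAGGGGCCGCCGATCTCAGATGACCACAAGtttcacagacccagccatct

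Dnttip1 transcripts fell in the DNTTIP1-/- MEFs but were not lost. Dnttip1 (ENSMUSG00000017299, mm10 chromosome 2, 164745983 to 164768607) had 197 and 173 normalized counts in the DNTTIP1-/- libraries, against 434 and 443 in the DNTTIP1+/+ libraries. Both knockout libraries lay below both wild types, and the 2 lines of a genotype were close to each other (185 ± 17.0 and 439 ± 5.73 normalized counts, SD, n = 2 each). The fitted difference, on the log2(value + 1) scale used for all fold changes here, was -1.25 with a standard error of 0.16, and limma with Benjamini-Hochberg adjustment gave an adjusted p of 0.0591. A deletion inside 1 exon leaves the other exons to be counted, and exons of Gm11457 overlap those of Dnttip1 on the other strand. Within 300 kb of Dnttip1 on either side, 19 other genes were tested and none was called by limma. None of the 19 had an unadjusted p under 0.05 either, the lowest being 0.0614.

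No gene of a partner subunit was called by limma. Hdac1 (2139 and 2239.5 normalized counts in the DNTTIP1-/- libraries, against 2171 and 2115 in the DNTTIP1+/+ libraries) and Hdac2 (1905 and 2038 normalized counts in the DNTTIP1-/- libraries, against 1835 and 1819 in the DNTTIP1+/+ libraries) encode the catalytic subunits. The Hdac1 libraries of the 2 genotypes overlapped and those of Hdac2 lay close together, with log2 fold changes of 0.03 (standard error 0.15) and 0.11 (standard error 0.14). Elmsan1, which encodes MIDEAS, had 1453 and 2095 normalized counts in the DNTTIP1-/- libraries, against 973 and 1246 in the DNTTIP1+/+ libraries. Its paralog Trerf1 had 996 and 1133 normalized counts in the DNTTIP1-/- libraries, against 645 and 643 in the DNTTIP1+/+ libraries. Both knockout values were above both wild-type values for each of these 2 genes, at log2 fold changes of 0.66 (standard error 0.26) and 0.72 (standard error 0.19), and neither was called (adjusted p = 0.692 and 0.387 by limma). The other paralog of Elmsan1, Zfp541, did not pass the filter on low values. Of 33 genes of the other class I histone deacetylase complexes, 0 had an unadjusted p under 0.05 by limma, and their median log2 fold change was 0.0093 against 0.0017 over all tested genes. Without MIDEAS-/- replicate 1 that count was 2, and with library totals as the scaling the median was -0.02.

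The 4 libraries held 12890789 to 14326571 reads and differed more by replicate number than by genotype. The replicate 1 libraries of both genotypes had no read of Xist, the long noncoding RNA of the inactive X chromosome, and the replicate 2 libraries had none of the Y-linked Ddx3y. Xist was listed at 0 and 5376 normalized counts in DNTTIP1-/- replicates 1 and 2, against 0 and 4483 in DNTTIP1+/+ replicates 1 and 2. Ddx3y was at 1710.4 and 0 in DNTTIP1-/-, against 1486 and 0 in DNTTIP1+/+. So the lines numbered 1 and those numbered 2 were of different sex in both genotypes, and genotype and sex were balanced. The wild types differed between numbers by at least 1 on the log2 scale in 1937 genes and the knockouts in 1665 genes.

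Marker lists moved with the replicate number in the same way. Summed over 27 skeletal and heart muscle genes, the normalized counts were 659 and 4474 in DNTTIP1-/- replicates 1 and 2, against 1072 and 4137 in DNTTIP1+/+ replicates 1 and 2. Over 30 interferon-stimulated genes the sums were 12010 and 3360 in DNTTIP1-/-, against 11180 and 3288 in DNTTIP1+/+. Over 24 macrophage and blood genes they were 2766 and 1998 in DNTTIP1-/-, against 2979 and 1646 in DNTTIP1+/+. Each of these lists thus separated the numbers and left the genotypes overlapping. Fibroblast genes, which check the labelled cell type, were high throughout, at 56400 to 58690 in DNTTIP1-/- and 51410 to 60570 in DNTTIP1+/+ over 14 genes, and Col1a1, a major fibrillar collagen, had 12790 and 13550 normalized counts in DNTTIP1-/-, against 13750 and 12570 in DNTTIP1+/+. In bulk samples fewer cells of a type and less RNA per cell cannot be told apart. Differences are therefore also given within each replicate number, as replicate 1 minus replicate 1 and replicate 2 minus replicate 2, which are single values with no test.

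**Figure D1:**
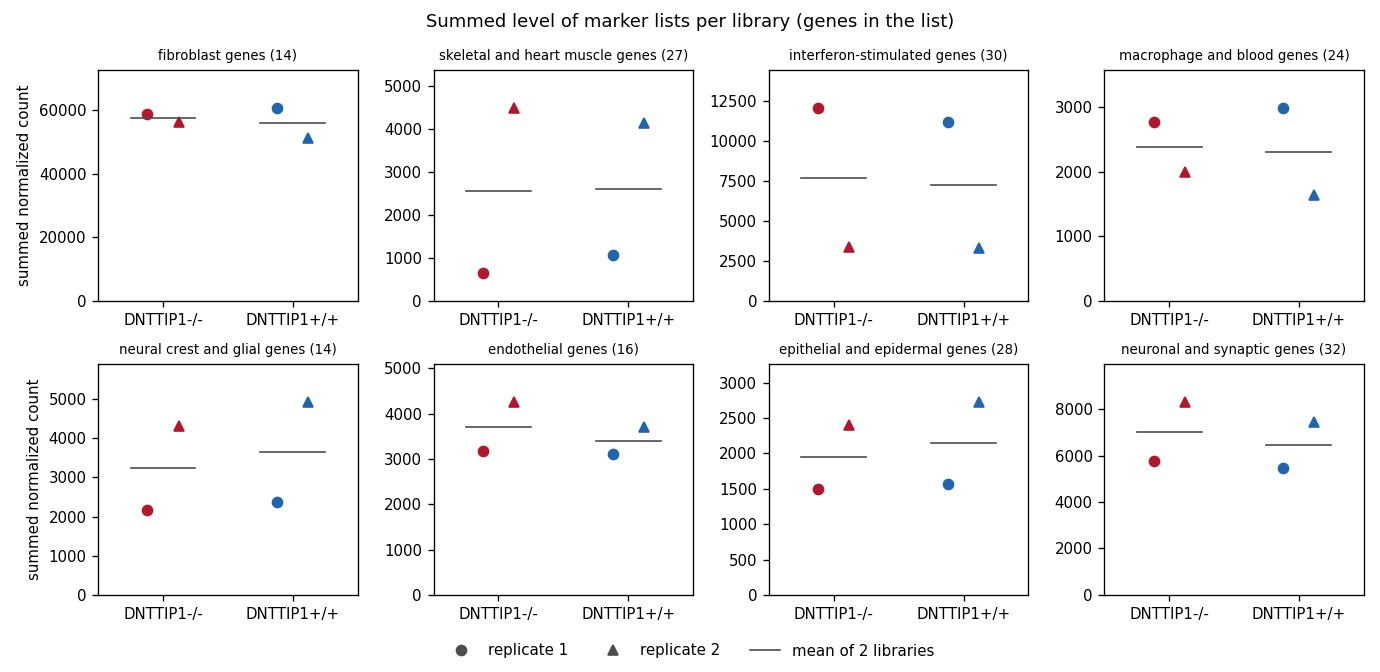
Summed normalized counts (vertical axes) of 8 marker lists in each library, DNTTIP1-/- left and DNTTIP1+/+ right, with circles for replicate 1, triangles for replicate 2 and a line at the mean of the 2 libraries. Muscle genes were at 659 and 1072 in the replicate 1 libraries of the 2 genotypes and at 4474 and 4137 in the replicate 2 libraries, and interferon-stimulated genes showed the opposite order.

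Across the transcriptome, 4 genes rose and 1 fell in DNTTIP1-/- MEFs at an adjusted p under 0.1 (limma), which is 0.0249% and 0.00624% of the 16036 genes tested. At an unadjusted p under 0.05 there were 716 genes with a positive log2 fold change (4.46%) and 338 with a negative one (2.11%), where 5% in all would pass with no effect. Within both replicate numbers, 348 genes (2.17%) were at least 1 higher on the log2 scale in the knockout and 153 (0.954%) at least 1 lower, while 44 genes differed by at least 1 in opposite directions. Genes with larger values in the knockout were thus the more frequent by each of these counts, although the median log2 fold change over all genes was 0.0017. A positive log2 fold change of any size was found for 8060 of the 16036 genes. The counts of list members below are to be set beside these shares of all genes.

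The 4 genes that rose encode a kinase, a receptor, an RNA-binding protein and a secreted Wnt inhibitor. Map2k6 (ENSMUSG00000020623, chromosome 11), the MAP kinase kinase that activates p38, had 885 and 1196 normalized counts in the DNTTIP1-/- libraries, against 153 and 102 in the DNTTIP1+/+ libraries. This is the largest change among the called genes, at 1041 ± 220.1 against 128 ± 35.7 normalized counts (SD, n = 2 each) and a log2 fold change of 3.03 (standard error 0.34). Adrb1 (ENSMUSG00000035283, chromosome 19), the beta-1 adrenergic receptor for noradrenaline and adrenaline, had 213 and 272 normalized counts in the DNTTIP1-/- libraries, against 42.2 and 26.3 in the DNTTIP1+/+ libraries. Its means were 243 ± 41.7 and 34.2 ± 11.2 normalized counts (SD, n = 2 each), with a log2 fold change of 2.82 (standard error 0.36).

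Raver2 (ENSMUSG00000035275, chromosome 4), which encodes a ribonucleoprotein that binds the splicing regulator PTB, had 379 and 352 normalized counts in the DNTTIP1-/- libraries, against 109 and 104 in the DNTTIP1+/+ libraries. The lines of 1 genotype hardly differed for this gene (366 ± 19.1 and 106 ± 3.05 normalized counts, SD, n = 2 each), and its log2 fold change was 1.77 (standard error 0.23). Exons of Raver2 overlap those of Jak1 on the other strand, and Jak1 had 3875 and 3420 normalized counts in DNTTIP1-/-, against 3332 and 3041 in DNTTIP1+/+ (log2 fold change 0.19). Frzb (ENSMUSG00000027004, chromosome 2), a secreted frizzled-related protein that binds Wnt ligands, had 595 and 717 normalized counts in the DNTTIP1-/- libraries, against 198 and 213 in the DNTTIP1+/+ libraries, means of 656 ± 86.8 and 205 ± 10.1 (SD, n = 2 each) and a log2 fold change of 1.67 (standard error 0.22). The adjusted p by limma was 0.0591 for all 5 called genes, and in none of them did the genotypes overlap. Separation of this kind was frequent, since 20.2% of all tested genes had both knockout values above both wild-type values and 18.8% had both below. Map2k6 was the only called gene of 17 in the p38 MAP kinase pathway (median 0.05), and Adrb1 the only one of 14 tested receptors for catecholamines and purines (median -0.44).

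**Figure D2:**
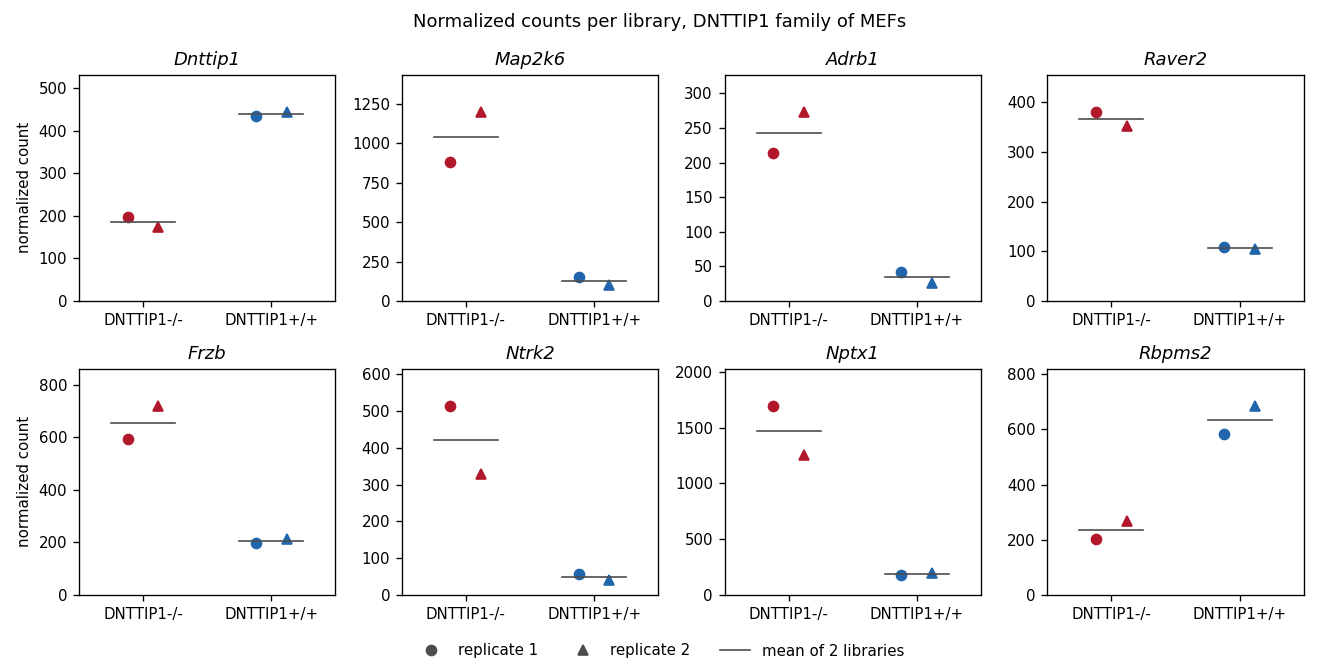
Normalized counts (vertical axes, from 0) in each library of the 5 called genes and of Ntrk2, Nptx1 and Rbpms2, with DNTTIP1-/- left and DNTTIP1+/+ right, circles for replicate 1, triangles for replicate 2 and a line at the mean. The groups are apart in all 8 panels, with Map2k6 at 885 and 1196 in the knockout, against 153 and 102 in the wild type.

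These calls were close to the threshold. Without any 1 of the 4 DNTTIP1 libraries, or without MIDEAS-/- replicate 2 or 3, limma called 0 genes (770 to 1123 genes at an unadjusted p under 0.05 in these fits). With the 4 DNTTIP1 libraries fitted alone limma also called 0 genes (1291 at an unadjusted p under 0.05), as did edgeR (1266). Those 1291 are 8.05% of all tested genes, and the share was 9.78% without MIDEAS-/- replicate 1. List counts from these 2 fits are to be set beside these shares. Limma called 1 gene without MIDEAS+/+ replicate 1 or 3 and 3 genes without MIDEAS+/+ replicate 2. On the reads recovered from the normalized counts, edgeR's quasi-likelihood test called the same 5 genes, whereas DESeq2 called 157 higher and 49 lower, all 5 among them. A gene is said to be called where limma called it. Of genes given with a limma p beyond the threshold, DESeq2 also called Trerf1, Ntrk2, Rbpms2, Itga7, Fzd4, Ror1, Lrp4, Eya2, Peg10, Zim1, Peg3 and Igf2. None of these was called by edgeR. Of genes given without a p for this comparison, DESeq2 called some, among them Cdh4, Cdk18, Hgf, Sparcl1, Fbln7, Rrad, Kcnmb1 and Hoxc10. It did not call others, among them Mapk13, Dkk1 and Cdh8.

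The sequences before the start sites of the 4 genes that rose are shown, as members that moved together. Each is the 250 bases upstream of a RefSeq start (GRCm38.p6), on the strand of the gene, with GC boxes, the letters GGGCGG or their reverse complement CCGCCC, in capitals. Raver2 had 3 GC boxes, Adrb1 and Frzb 1 each and Map2k6, whose first of 3 annotated starts is shown, 0, while the second and the third start of Map2k6 had 1 and 0. Of the 32851 promoters of the same length in the table, 32.7% held at least 1. The CpG dinucleotides in these windows numbered 33 for Raver2, 24 for Adrb1, 16 for Frzb and 12 for the first start of Map2k6, against a median of 6 over all promoters. The other starts of Map2k6 had 5 and 4. All promoters here means those of 27025 genes, whether or not these passed the filter on low values, so they are no background of expressed genes.
Map2k6, chr11:110398852-110399101, plus strand: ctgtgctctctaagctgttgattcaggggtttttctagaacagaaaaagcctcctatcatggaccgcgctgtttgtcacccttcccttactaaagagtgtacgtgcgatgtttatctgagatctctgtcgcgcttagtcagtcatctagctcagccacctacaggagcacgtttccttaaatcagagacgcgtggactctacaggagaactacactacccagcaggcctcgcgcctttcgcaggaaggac
Adrb1, chr19:56721867-56722116, plus strand: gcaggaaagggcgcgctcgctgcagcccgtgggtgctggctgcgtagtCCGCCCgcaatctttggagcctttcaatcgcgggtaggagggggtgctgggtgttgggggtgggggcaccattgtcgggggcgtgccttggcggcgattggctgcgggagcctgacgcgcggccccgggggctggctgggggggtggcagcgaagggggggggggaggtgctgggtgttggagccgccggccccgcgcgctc
Raver2, chr4:101068788-101069037, plus strand: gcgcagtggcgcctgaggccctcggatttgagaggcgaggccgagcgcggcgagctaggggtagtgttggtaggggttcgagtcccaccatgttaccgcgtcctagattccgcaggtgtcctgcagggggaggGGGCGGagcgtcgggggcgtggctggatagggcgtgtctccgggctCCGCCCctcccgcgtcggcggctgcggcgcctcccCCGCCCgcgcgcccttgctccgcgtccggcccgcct
Frzb, chr2:80447397-80447646, minus strand: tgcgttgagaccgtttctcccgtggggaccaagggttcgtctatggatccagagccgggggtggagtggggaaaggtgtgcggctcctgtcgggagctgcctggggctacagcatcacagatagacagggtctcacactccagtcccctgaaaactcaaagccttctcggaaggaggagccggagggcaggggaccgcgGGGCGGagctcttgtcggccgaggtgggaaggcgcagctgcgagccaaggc

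Several genes with roles in neurons, synapses or the reception of neurotransmitters were among those with the largest positive differences in both replicate numbers. Limma and edgeR called none of the 7 named here. DESeq2 called 6 of them (adjusted p = 1.45e-06 for Ntrk2 to 0.00696 for Chrm3) and not Sv2c (adjusted p = 0.217). Ntrk2, the receptor for brain-derived neurotrophic factor, had 512 and 329 normalized counts in the DNTTIP1-/- libraries, against 55.9 and 40.9 in the DNTTIP1+/+ libraries. The fitted difference was 3.07 on the log2 scale (standard error 0.51), with an adjusted p of 0.132 by limma. Nptx1, a secreted neuronal pentraxin that clusters glutamate receptors, had 1691 and 1254 normalized counts in the DNTTIP1-/- libraries, against 178 and 198 in the DNTTIP1+/+ libraries. With a log2 fold change of 2.95 (standard error 0.58), it was one of the more abundant of these transcripts in the knockout. Nefl and Nefm encode the light and medium chains of neurofilaments and overlap each other's exons on opposite strands. Nefl had 99.9 and 292 normalized counts in the DNTTIP1-/- libraries, against 6.33 and 27.3 in the DNTTIP1+/+ libraries, and Nefm had 252 and 1080.4 normalized counts in the DNTTIP1-/- libraries, against 43.2 and 135 in the DNTTIP1+/+ libraries. For both, the replicate 2 line was the higher in each genotype, so that the difference within a number (3.78 and 3.37 for Nefl, 2.52 and 3.0 for Nefm) was steadier than the level.

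Chrm3, a muscarinic acetylcholine receptor, had 78.3 and 253 normalized counts in the DNTTIP1-/- libraries, against 8.44 and 35.1 in the DNTTIP1+/+ libraries. Unc13c, which primes synaptic vesicles, had 173 and 296 in the knockout libraries, against 35.9 and 50.7 in the wild types, and Sv2c, a synaptic vesicle glycoprotein, 284 and 190.3 against 54.8 and 34.1. The wild-type values of all 3 were below 60 normalized counts. Ntrk2, Nptx1, Chrm3, Unc13c and Sv2c were named for the size of their differences and are in none of the gene lists, so the counts of the neuronal list, which holds Nefl and Nefm, do not describe them. Of the 32 neuronal and synaptic genes listed, 21 were tested, of which 6 had a positive and 1 a negative log2 fold change at an unadjusted p under 0.05, and 6 were at least 1 higher and 1 at least 1 lower within both numbers. With the 4 DNTTIP1 libraries fitted alone the first count was 3 higher and 0 lower, where 8.05% of all tested genes passed. The median of the list was 0.28, and its summed level overlapped between genotypes (5757 and 8288 normalized counts in DNTTIP1-/-, against 5481 and 7429 in DNTTIP1+/+). The nuclear neuronal marker Rbfox3 was at 0 in all 4 libraries and Snap25, of the synaptic fusion machinery, at 0 in 3 of them and at 1.95 in DNTTIP1+/+ replicate 2.

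Among the genes with lower values in the knockout, Prdm1 had no read in either DNTTIP1-/- library. Prdm1, the transcriptional repressor BLIMP1, had 0 and 0 reads in DNTTIP1-/-, against 19 and 30 reads in DNTTIP1+/+, or 0 and 0 normalized counts against 20.04 and 29.2. Over both knockout libraries, 3 reads were taken as the limit that a count of 0 allows. Relative to library size, the DNTTIP1+/+ level of Prdm1 was 15.9 times that limit. The limit covers counting error in the knockout only, not the error of the wild types or variation between lines. For Prdm1 limma gave an adjusted p of 0.132. Rbpms2, an RNA-binding protein of smooth muscle precursors, had 202 and 267 normalized counts in the DNTTIP1-/- libraries, against 584 and 683 in the DNTTIP1+/+ libraries. Itga7, a laminin-binding integrin chain of muscle, had 311 and 281 normalized counts in the DNTTIP1-/- libraries, against 695 and 920.2 in the DNTTIP1+/+ libraries. Neither gene's groups overlapped, and the log2 fold changes were -1.44 (standard error 0.23) for Rbpms2 and -1.43 (standard error 0.23) for Itga7, with an adjusted p of 0.132 by limma for both.

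Kcnmb1, the regulatory subunit of calcium-activated potassium channels in smooth muscle, had 6.18 and 24.1 normalized counts in the DNTTIP1-/- libraries, against 84.4 and 163 in the DNTTIP1+/+ libraries. The smooth muscle and myofibroblast list had a small median of -0.10, with 5 of 19 members positive. Within both numbers 12 members were negative and 1 was positive. At an unadjusted p under 0.05, 1 of 19 was lower and none higher, and 3 were lower when MIDEAS-/- replicate 1 was left out. The 1 lower member was Myh11, with 399 and 1042 normalized counts in DNTTIP1-/-, against 1159 and 1891 in DNTTIP1+/+. Other lower genes included 3 kinases and signalling proteins. Mapk13, the delta isoform of p38, had 122 and 44.8 normalized counts in the DNTTIP1-/- libraries, against 458 and 207 in the DNTTIP1+/+ libraries, Cdk18, a cyclin-dependent kinase, had 159 and 222 against 470.3 and 819, and Sfn, the 14-3-3 sigma protein, had 115 and 197 against 267 and 944. The 2 wild-type lines were far apart for Sfn, yet both were above the knockout lines. Angptl4, a secreted inhibitor of lipoprotein lipase, had 40.2 and 67.8 normalized counts in the DNTTIP1-/- libraries, against 237 and 213 in the DNTTIP1+/+ libraries. Rrad, a small GTPase that binds calcium channels, had 82.4 and 85.3 normalized counts in DNTTIP1-/-, against 216 and 235 in DNTTIP1+/+, with log2 fold changes of -2.09 (standard error 0.53) for Angptl4 and -1.42 (standard error 0.32) for Rrad.

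**Figure D3:**
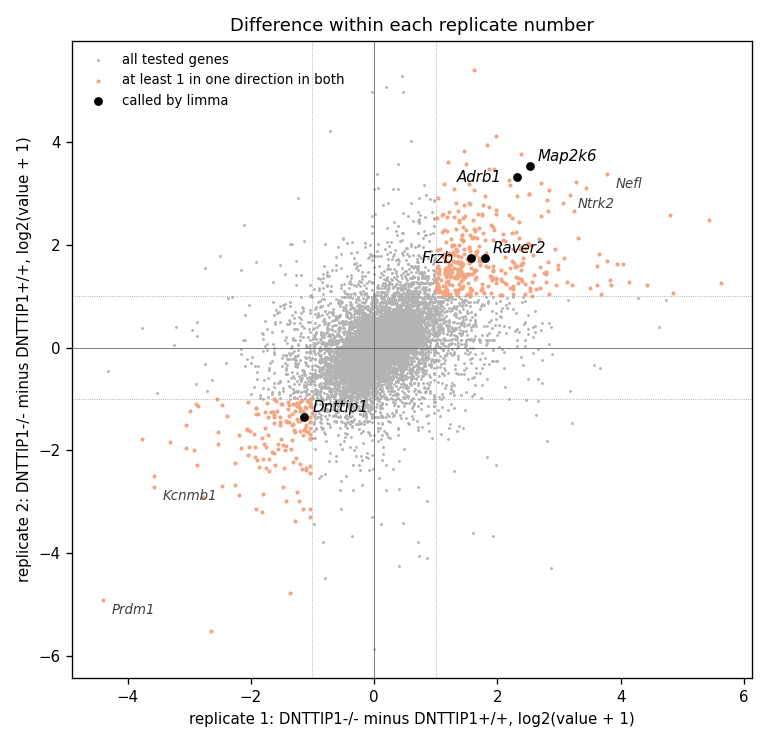
Difference between DNTTIP1-/- and DNTTIP1+/+ on the log2(value + 1) scale within replicate 1 (horizontal axis) and within replicate 2 (vertical axis) for the 16036 tested genes, with genes at least 1 apart in one direction in both in orange and the 5 called genes in black. More genes lie in the upper right corner (348) than in the lower left (153), and 44 lie beyond 1 in opposite directions.

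The 2 within-number differences shared a direction for most of the large changes. Of 818 genes at least 1 higher in DNTTIP1-/- replicate 1 than in DNTTIP1+/+ replicate 1, 679 (83.0%) had a positive difference in replicate 2 and 348 (42.5%) one of at least 1. Of 432 genes at least 1 lower in replicate 1, 330 (76.4%) had a negative difference in replicate 2 and 153 (35.4%) one of at least 1 in that direction. The 2 differences use separate libraries on both sides, and their correlation across genes, which are not independent replicates, was 0.48.

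Wnt signalling works through secreted Wnt ligands, frizzled receptors with LRP co-receptors, and secreted antagonists that bind either, and each of these groups had members with higher values in the knockout. Among 11 tested secreted antagonists of 13, 5 had an unadjusted p under 0.05, all with positive log2 fold changes, 6 were at least 1 higher within both numbers, and the median was 1.50. Besides Frzb, Sfrp4, a second frizzled-related protein, had 204 and 202 normalized counts in the DNTTIP1-/- libraries, against 87.5 and 57.5 in the DNTTIP1+/+ libraries, and Dkk1, which blocks LRP co-receptors, had 48.4 and 31.7 normalized counts in the DNTTIP1-/- libraries, against 0 and 12.7 in the DNTTIP1+/+ libraries. Dkk1 was low, and in DNTTIP1+/+ replicate 1 it had no read. The median of the list was 1.13 over members with a mean of at least 50.

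Of 22 receptors and co-receptors, all tested, 6 had a positive and 0 a negative log2 fold change at an unadjusted p under 0.05, with a median of 0.40. Fzd4, a frizzled receptor, had 1848 and 2096 normalized counts in the DNTTIP1-/- libraries, against 735 and 552 in the DNTTIP1+/+ libraries. Ror1, a receptor kinase for WNT5A, had 756 and 581.8 normalized counts in the DNTTIP1-/- libraries, against 287 and 217 in the DNTTIP1+/+ libraries. Lrp4, an LRP family receptor that binds sclerostin and agrin, had 803 and 659 normalized counts in the DNTTIP1-/- libraries, against 308 and 281 in the DNTTIP1+/+ libraries. These 3 were at least 1 higher within both numbers and were not called (adjusted p = 0.203, 0.15 and 0.148 by limma). Lrp6, the co-receptor of canonical signalling, was abundant and differed less, at 3501 and 3049.8 normalized counts in the knockout, against 2323 and 1909.6 in the wild type. Of 14 tested Wnt ligands of 22, 1 passed an unadjusted p of 0.05 (2 with the 4 DNTTIP1 libraries fitted alone), Wnt11, a non-canonical ligand, with 496 and 670.3 normalized counts in DNTTIP1-/-, against 137 and 291 in DNTTIP1+/+.

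Target genes and nuclear factors of the pathway went both ways. Of 14 tested of 15, 3 had a positive and 1 a negative log2 fold change at an unadjusted p under 0.05, and the median was 0.28. Tnfrsf19, a Wnt-induced receptor of the TNF receptor family, had 84.5 and 109 normalized counts in the DNTTIP1-/- libraries, against 16.9 and 46.8 in the DNTTIP1+/+ libraries. Ccnd1, cyclin D1, had 3048 and 2956 against 2297 and 2332 normalized counts and a log2 fold change of 0.38 (standard error 0.12), whereas Tcf7, a nuclear partner of beta-catenin, had 24.7 and 39.4 against 72.8 and 63.4 and a log2 fold change of -1.10 (standard error 0.36).

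Cadherins, the calcium-dependent adhesion proteins, leaned towards the knockout as a group. Of 32 tested cadherins and non-clustered protocadherins of 43, 14 had a positive and 0 a negative log2 fold change at an unadjusted p under 0.05, 8 were at least 1 higher within both numbers and the median was 0.69. Cdh4, the classical R-cadherin, had 443 and 353 normalized counts in the DNTTIP1-/- libraries, against 75.9 and 87.7 in the DNTTIP1+/+ libraries. Pcdh10, a protocadherin of the nervous system, had 527 and 444 normalized counts in the DNTTIP1-/- libraries, against 167 and 121 in the DNTTIP1+/+ libraries. Fat3, a giant atypical cadherin, had 94.8 and 185 in the knockout, against 12.7 and 24.4 in the wild type, and Cdh8, a type II cadherin, 125 and 166 against 16.9 and 25.3. Fat3 and Cdh8 were low in the wild types and at least 2.5 higher on the log2 scale within each number.

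Axon guidance ligands and receptors, which also steer cells of mesenchyme, leaned the same way by less. Of 65 tested of 67, 15 had a positive and 0 a negative log2 fold change at an unadjusted p under 0.05. At any p, 53 were positive, against 8060 of 16036 over all tested genes, and the median was 0.39. Efnb3, a membrane-bound ephrin ligand, had 74.2 and 99.5 normalized counts in the DNTTIP1-/- libraries, against 25.3 and 47.8 in the DNTTIP1+/+ libraries. Only 3 members were at least 1 higher within both numbers and 1 at least 1 lower.

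Imprinted genes are expressed from 1 parental allele, and several of the paternally expressed ones form a network that is high in embryos. All 30 of the list were tested, 11 had a positive and 0 a negative log2 fold change at an unadjusted p under 0.05, and the median was 0.58 (0.53 within each number). Peg3, a zinc finger gene, had 5855 and 8187 normalized counts in the DNTTIP1-/- libraries, against 2822 and 3889 in the DNTTIP1+/+ libraries. Zim1, its neighbour in the same imprinted domain, had 773 and 1328 normalized counts in the DNTTIP1-/- libraries, against 297 and 426 in the DNTTIP1+/+ libraries. Peg10, a retrotransposon-derived gene, had 2187 and 3059.7 normalized counts in the DNTTIP1-/- libraries, against 817 and 1375 in the DNTTIP1+/+ libraries. For these 3 the knockout line exceeded the wild-type line of its own number by at least 1 on the log2 scale in both numbers, and the replicate 2 line was the higher in each genotype. The growth factor gene Igf2 had 1421 and 1539.7 normalized counts in DNTTIP1-/-, against 669 and 936 in DNTTIP1+/+, with a log2 fold change of 0.90 (standard error 0.23). Its exons overlap those of Gm49394 and Igf2os. The adjusted p by limma was 0.194 for Peg10, 0.203 for Zim1, 0.317 for Peg3 and 0.355 for Igf2.

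Hox genes, which set position along the body axis, leaned slightly towards the knockout as a group. Of 36 tested of 39, 31 had a positive log2 fold change, against 8060 of 16036 over all tested genes. Of the 31, 6 had an unadjusted p under 0.05, no negative member passed that threshold, and the median was 0.32. Hoxc10 had 442 and 525 normalized counts in the DNTTIP1-/- libraries, against 275 and 274 in the DNTTIP1+/+ libraries. Hoxa5 had 401 and 569 normalized counts in the DNTTIP1-/- libraries, against 244 and 301 in the DNTTIP1+/+ libraries, and Hoxa6, its neighbour in the cluster, had 85.5 and 121 against 37.96 and 37.0. Hoxa6 was the single member at least 1 higher within both numbers (1.15 and 1.69). Exons of Hoxc10 overlap those of Hoxc5 in the annotation, and Hox levels also depend on which part of the body a culture came from, which the labels do not give. Other transcription factors of mesenchyme and heart had a median of 0.28, with 10 of 62 positive and 2 negative at an unadjusted p under 0.05 (6 and 1 with the 4 DNTTIP1 libraries fitted alone). The transcriptional coactivator gene Eya2, named for the eyes absent gene of the fly, had 388 and 469 normalized counts in the DNTTIP1-/- libraries, against 146 and 167 in the DNTTIP1+/+ libraries, at a log2 fold change of 1.45 with a standard error of 0.25 and an adjusted p of 0.141 by limma.

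Growth factor, matrix and differentiation genes gave a mixed picture. In the BMP and TGF-beta list 8 of 37 tested genes had a positive and 2 a negative log2 fold change at an unadjusted p under 0.05, and the median was 0.21. Gdf5, a BMP family ligand of joints, had 129.8 and 93.0 normalized counts in the DNTTIP1-/- libraries, against 37.96 and 14.6 in the DNTTIP1+/+ libraries, while the BMP-responsive inhibitors Id2 and Smad6 had 973 and 927 against 696 and 419 and 1499 and 1355 against 939.6 and 727 normalized counts. Of 45 growth factors of mesenchyme, 7 had a positive and 2 a negative log2 fold change at that threshold. Hgf, the ligand of MET, had 656 and 670.3 normalized counts in the DNTTIP1-/- libraries, against 331 and 237 in the DNTTIP1+/+ libraries, and Angpt2, a ligand of the endothelial receptor TEK, had 267 and 484 normalized counts in the DNTTIP1-/- libraries, against 119 and 174 in the DNTTIP1+/+ libraries. Il33, a cytokine released by damaged cells, had 81.4 and 107 in DNTTIP1-/-, against 24.3 and 26.3 in DNTTIP1+/+, in a list of 25 cytokines with 2 positive and 1 negative at that threshold.

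The collagen list had a median close to that of all genes, and its members with larger differences included less abundant ones. Of 41 collagens tested, 3 had a positive and 0 a negative log2 fold change at an unadjusted p under 0.05, with a median of 0.10. Col23a1, a transmembrane collagen, had 347 and 137 normalized counts in the DNTTIP1-/- libraries, against 65.4 and 43.9 in the DNTTIP1+/+ libraries. Of 41 proteoglycans and matrix glycoproteins 5 were positive and 0 negative at that threshold, among them Sparcl1, a matricellular protein related to SPARC, with 1037 and 831 in DNTTIP1-/-, against 146 and 261 in DNTTIP1+/+. Fbln7, a fibulin, had 187 and 264 against 67.5 and 17.5. Among 37 matrix proteases and their inhibitors 7 were positive and 3 negative, and Adamts9, a protease that cleaves proteoglycans, had 1123 and 1582 normalized counts in the DNTTIP1-/- libraries, against 459.8 and 490.3 in the DNTTIP1+/+ libraries.

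Markers of adipocyte and skeletal lineages leaned upwards in both numbers. Of 13 tested adipocyte genes of 19, 4 had a positive and 0 a negative log2 fold change at an unadjusted p under 0.05 (median 0.64). Zfp423, a transcription factor of preadipocytes, had 378 and 378 normalized counts in the DNTTIP1-/- libraries, against 160.3 and 134 in the DNTTIP1+/+ libraries, and Cebpa, a master regulator of the lineage, had 1094 and 618 normalized counts in the DNTTIP1-/- libraries, against 476 and 215 in the DNTTIP1+/+ libraries. The defining markers of mature fat cells Adipoq, Cidec, Retn and Lep had no read in any of the 4 libraries. The summed level of the list was 15390 and 13110 in DNTTIP1-/-, against 8732 and 9054 in DNTTIP1+/+. Much of that sum was Fasn, with 8311 and 7774 in DNTTIP1-/-, against 4212 and 6326 in DNTTIP1+/+. The log2 fold change of Fasn was 0.64, and -0.10 in the MIDEAS family. Of 19 tested chondrocyte and osteoblast genes 3 were positive and 0 negative at that threshold (6 positive with the 4 DNTTIP1 libraries fitted alone), with a median of 0.62. The summed level of that list overlapped between genotypes (7598 and 6824 in DNTTIP1-/-, against 7082 and 5809 in DNTTIP1+/+).

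Genes of cholesterol synthesis were all on the positive side, with a difference between the numbers. All 24 had a positive log2 fold change, 6 with an unadjusted p under 0.05 (10 with the 4 DNTTIP1 libraries fitted alone), and the median was 0.48. The median was 0.78 within replicate 1 and 0.14 within replicate 2. In the glycolysis and hypoxia list 3 of 22 genes had a negative and 0 a positive log2 fold change at an unadjusted p under 0.05 (5 and 0 with the 4 DNTTIP1 libraries fitted alone), with a median of -0.25. Slc16a3, a lactate exporter, had 678 and 391 normalized counts in the DNTTIP1-/- libraries, against 1579.6 and 874 in the DNTTIP1+/+ libraries. Eno1, the abundant glycolytic enolase, had 8992 and 8954 against 11397 and 12247 normalized counts, and Ankrd37, a small hypoxia-induced gene, had 7.21 and 4.37 against 32.7 and 19.5. Slc16a3, Eno1 and Ankrd37 were each lower in both knockout libraries than in either wild type.

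Cell cycle genes leaned by a small amount in one direction. All 41 kinetochore, spindle and mitotic genes had a positive log2 fold change, also within each number and under TMM or library-total scaling, with a median of 0.25 (0.24 within each number). Only Cenpf, a large kinetochore protein, had an unadjusted p under 0.05, with 1457 and 1313 normalized counts in the DNTTIP1-/- libraries, against 931 and 919 in the DNTTIP1+/+ libraries. The count was 8 when MIDEAS-/- replicate 1 was left out and 11 with the 4 DNTTIP1 libraries fitted alone, where the share of all genes at that threshold was 9.78% and 8.05%, against 6.57%. Of 31 replication genes 30 were positive, 0 had an unadjusted p under 0.05 by limma (3 without MIDEAS-/- replicate 1) and the median was 0.18. Of 22 cyclin-dependent kinase inhibitors and p53 targets 10 were positive, with a median of -0.0027. Septins, the filament-forming GTPases of cytokinesis, had 2 of 11 tested members above zero at an unadjusted p under 0.05. Sept3, a septin of neurons, had 151 and 174 normalized counts in the DNTTIP1-/- libraries, against 29.5 and 57.5 in the DNTTIP1+/+ libraries, and the widely expressed Sept6 had 1289 and 1469 against 945 and 832.

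Lists of stress and growth responses had medians nearer to that of all genes, though some leaned to one side. The immediate early genes, which respond to serum within minutes, had a median of 0.07, with 2 of 19 positive at an unadjusted p under 0.05. One of them was Nr4a3, an orphan nuclear receptor, with 103 and 166 normalized counts in the DNTTIP1-/- libraries, against 34.8 and 41.9 in the DNTTIP1+/+ libraries. Interferon-stimulated genes had 0 of 27 at that threshold by limma and a median of 0.16, the unfolded protein and amino acid response 0 of 20 (2, both negative, with the 4 DNTTIP1 libraries fitted alone) and -0.12, and cytosolic ribosomal proteins 1 of 27, negative, and -0.10. Without MIDEAS-/- replicate 1 the last count was 4, all negative. At any p, 5 of the 27 ribosomal protein genes were positive, and 21 were negative within both numbers. Their summed level was 107120 and 99551 normalized counts in DNTTIP1-/-, against 126220 and 123580 in DNTTIP1+/+. Positive members numbered 4 of 20 in the unfolded protein and amino acid response, 12 of 19 immediate early genes and 19 of 27 interferon-stimulated genes.

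Of the marker lists for other cell types that a MEF culture can hold, those of macrophages and of the neural crest had the lowest medians. The complement genes C1qa, C1qb and C1qc and the integrin Itgam, which macrophages express, were each at least 1 lower within both numbers. C1qa had 44.3 and 7.66 normalized counts in DNTTIP1-/-, against 157 and 38.02 in DNTTIP1+/+. The genotypes overlapped for the 3 complement genes, where the knockout of replicate 1 lay above the wild type of replicate 2. Of 17 tested macrophage and blood genes 14 had a negative log2 fold change (median -0.76), none of these 14 with an unadjusted p under 0.05 by limma. The 1 member that passed, Cd34, was higher, with 1770 and 1580 normalized counts in DNTTIP1-/-, against 1107 and 1010 in DNTTIP1+/+. Kit was at least 1 higher within both numbers, at 23.7 and 52.5 against 4.22 and 15.6. Of 9 tested neural crest and glial genes 7 were negative and 2 positive, with a median of -0.76. S100b was 1 of the positive members, with 131 and 60.1 normalized counts in DNTTIP1-/-, against 56.9 and 36.1 in DNTTIP1+/+. Tfap2b, a neural crest transcription factor, had 57.7 and 28.4 normalized counts in the DNTTIP1-/- libraries, against 191 and 154 in the DNTTIP1+/+ libraries. Sox10, the defining factor of glia and neural crest, was at 6.18 and 6.56 in DNTTIP1-/-, against 25.3 and 37.0 in DNTTIP1+/+, and the summed level of that list was 2165 and 4308 against 2359 and 4908. The MIDEAS+/+ lines of the other family were also low for these 2 genes. They had 44.6, 11.2 and 72.0 normalized counts of Tfap2b and 7.80, 8.18 and 36.8 of Sox10.

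Among the remaining cell type lists few members passed. Endothelial genes had 0 of 10 at an unadjusted p under 0.05 by limma, with Pecam1 at 12.4 and 10.9 in DNTTIP1-/-, against 2.11 and 14.6 in DNTTIP1+/+. Epithelial and epidermal genes had 1 of 14, lower, and the basal keratin Krt5 was at 0 in both replicate 1 libraries and below 3 in the others. Skeletal and heart muscle genes had 0 of 22 by limma. The part of these cell types in the differences between genotypes was not tested.

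The second knockout of the complex, MIDEAS-/-, was set beside DNTTIP1-/- in the same fit, each against its own wild types, so that no library was shared. The test of the difference between the 2 effects called 0 genes (limma, smallest adjusted p 0.429), with 449 genes at an unadjusted p under 0.05. edgeR also called 0 and DESeq2 called 12. In MIDEAS-/- against MIDEAS+/+ the log2 fold changes of the called genes were 2.88 for Map2k6, 3.66 for Adrb1, 1.93 for Raver2 and 1.00 for Frzb, against 3.03, 2.82, 1.77 and 1.67 in the DNTTIP1 family. Dnttip1 itself had -0.14 in the MIDEAS family and was the gene with the second smallest unadjusted p of the difference (adjusted p = 0.991 by limma).

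List medians of the 2 families are given side by side, with no test of a list. Median log2 fold changes were 0.69 in DNTTIP1-/- and 0.58 in MIDEAS-/- for cadherins, 1.50 and 1.87 for secreted Wnt antagonists, 0.58 and 0.35 for imprinted genes, and 0.48 and 0.43 for cholesterol synthesis. Hox genes had medians of 0.32 in DNTTIP1-/- and -0.13 in MIDEAS-/-, with 31 and 13 of 36 positive (all genes: 8060 and 7494 of 16036). Hoxc10, for example, had a log2 fold change of 0.81 in DNTTIP1-/- and of -0.12 in MIDEAS-/-, and the test of that difference gave 0.93 (standard error 0.26, adjusted p = 0.991 by limma). The wild types of the 2 families differed in Hox levels as well. Hoxa6 had 37.96 and 37.0 normalized counts in DNTTIP1+/+, against 121, 119 and 128 in MIDEAS+/+. Hoxa5 had 244 and 301 against 573, 546 and 452. The DNTTIP1-/- values of Hoxc10 (442 and 525) were above those of MIDEAS+/+ (313, 434 and 435). Unc13c and Nr4a3 had 2.38 and 1.75 in DNTTIP1-/-, and -0.18 and 0.16 in MIDEAS-/-. Neither difference passed the adjusted test (2.56, standard error 0.62, and 1.59, standard error 0.51, adjusted p = 0.991 by limma for both). Prdm1 had 4.13, 3.99 and 9.89 normalized counts in MIDEAS-/-, against 13.4, 4.09 and 10.2 in MIDEAS+/+, so reads of it were present in all 6 libraries of that family, and the test of the difference had an adjusted p of 0.991 by limma.

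**Figure D4:**
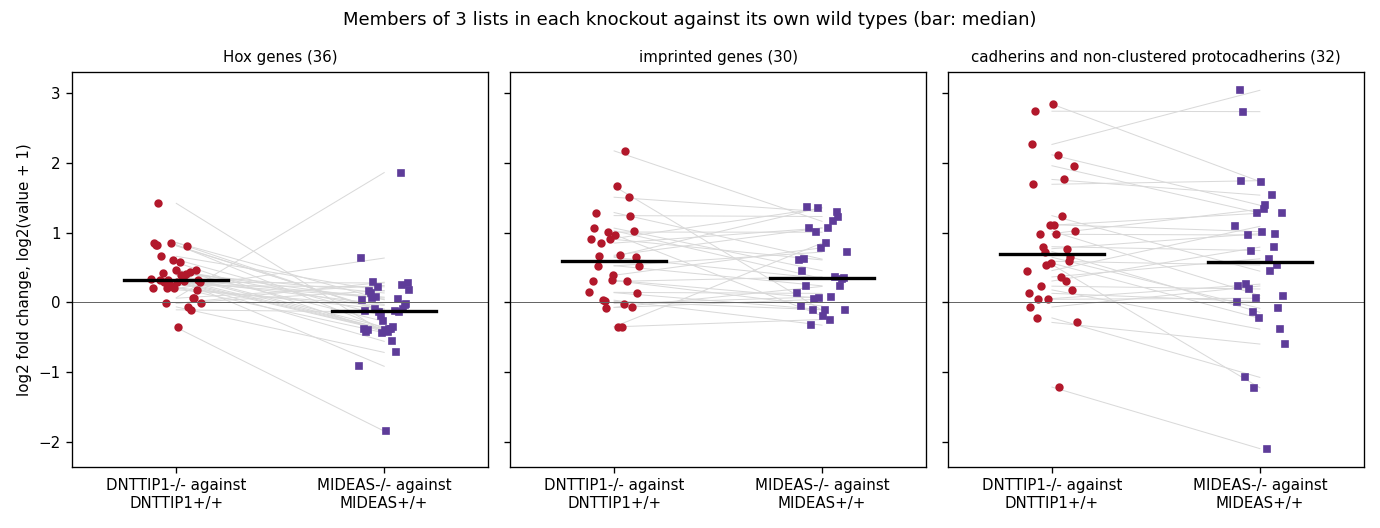
Log2 fold changes (vertical axis, log2(value + 1) scale) of the tested Hox genes, imprinted genes and cadherins in DNTTIP1-/- against DNTTIP1+/+ (red circles, left of each panel) and in MIDEAS-/- against MIDEAS+/+ (purple squares), with grey lines joining a gene and black bars at the medians. The Hox medians are 0.32 and -0.13, those of imprinted genes 0.58 and 0.35 and those of cadherins 0.69 and 0.58.

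**Figure D5:**
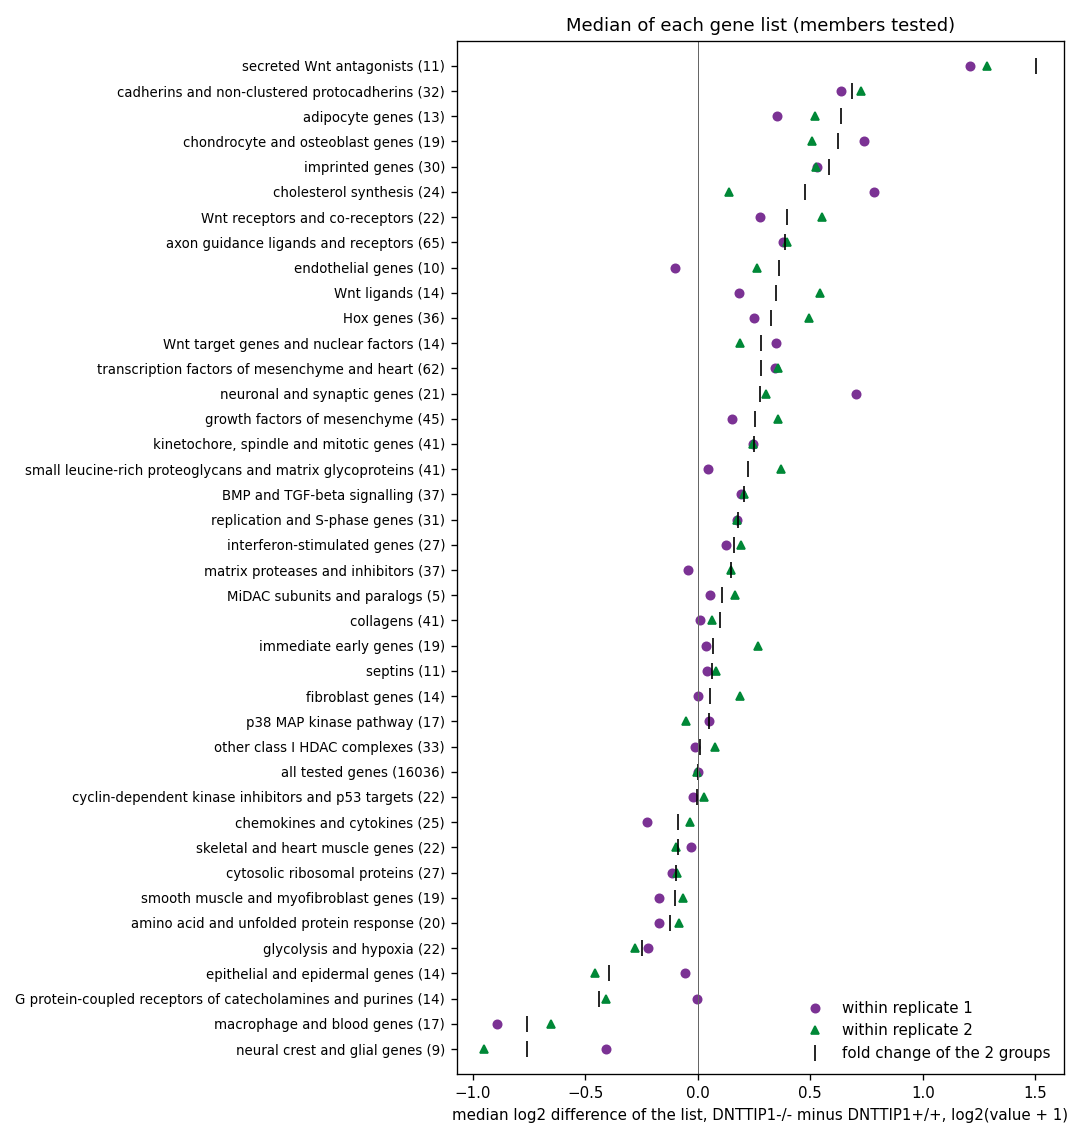
Median log2 difference between DNTTIP1-/- and DNTTIP1+/+ (horizontal axis, log2(value + 1) scale) of each gene list, with the number of members tested, within replicate 1 (circles), within replicate 2 (triangles) and as the fold change of the 2 groups (bars). Secreted Wnt antagonists are highest at 1.50 and macrophage and neural crest genes lowest at -0.76, and all tested genes lie at 0.0017.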

How the data were processed

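MEF RNA from 10 lines was sequenced. Per the labels, the submitters' processing notes and the methods of the study, reads were trimmed with Trim Galore 0.4.5 and cutadapt 1.11, aligned to mm10 with STAR 2.5.2b, processed with SAMtools 1.3.2 and Picard, and counted per gene, and the deposited signal is the gene count that the authors divided by DESeq2 size factors over all 10 libraries (a normalized count). The strand setting of the counting is not given in the sources used here. Dividing by the smallest step of a library gave whole numbers for 100% of values (tolerance 0.01), so reads were recovered, 12339970 to 19761295 per library. The authors' tables of comparisons hold fold changes and p-values and were not used, and 0 per-sample columns lacked a sample. Of 53801 genes, 53638 were named and 53706 were placed on mm10, and 25 symbols stored as dates were restored from gene identifiers.

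log2(value + 1) was fitted with limma 3.58.1 (R 4.3.3, trend and robust empirical Bayes) in 4 groups over all 10 libraries, for 16036 genes (29.8%) that averaged 10 or more in the 4 DNTTIP1 libraries. Fold changes are on this scale, which understates changes of low genes. A gene is called below an adjusted p of 0.1 (Benjamini-Hochberg), and an exact permutation test of 2 against 2 libraries cannot go below p = 0.333 (two-sided). On the recovered reads edgeR 4.0.16 (quasi-likelihood) called 5 genes and DESeq2 1.42.0 (Wald) 206. The genes, the 40 lists and the comparisons were chosen with earlier results of these data known. The rule for named genes takes MiDAC subunits, called genes, the 12 higher and 12 lower with the largest differences within both numbers, the 10 with the smallest p in each direction in a fit with the number as a block, up to 4 members of each list by p, and sex-linked markers (188 genes). Those in the text are a part of them, and Hmx1, Jak1 and the marker genes of other cell types were chosen after their values were seen. Exons of 1245 tested genes overlap another on the same strand and those of 4659 one on the other strand, whose reads may be shared. Of the genes named with tests, Dnttip1, Raver2, Itga7, Cdk18, Hgf, Nefl, Nefm, Rrad, Pcdh10, Hoxc10, Igf2, Hmx1, Adamts9, Sept6, Wnt11, Gdf5, Ccnd1, Cebpa, Ankrd37 and Cdh8 are among these. Reads shared with near-identical copies were not examined. Fits were run on simulated counts of independent libraries, only to check that median estimates came close to changes set in advance. The simulation held no effect shared by same-numbered libraries. Replicates all differed beyond sampling noise, with a chi-square per gene of 18.2 to 61.7. Plots used Python 3.11.15 and matplotlib 3.10.9.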

Additional observations from a re-analysis of the deposited data

Results flagged for a closer look

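Hmx1, a homeobox transcription factor of neural crest derivatives, went in opposite directions in every library of the 2 families. It had 4.12 and 8.75 normalized counts in DNTTIP1-/-, against 27.4 and 62.4 in DNTTIP1+/+, and 51.6, 106 and 38.6 in MIDEAS-/-, against 2.23, 3.07 and 5.48 in MIDEAS+/+. The difference between the 2 effects was -6.37 on the log2 scale (standard error 0.87), with the smallest unadjusted p of all genes (2.67e-05), and it was not called (adjusted p = 0.429 by limma). It was chosen after its values were seen.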

How the results depend on the processing

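The count of 5 genes was the same or within 1.5 times that number with other pseudocounts, other filters, TMM or library-total scaling, edgeR or chromosomes X and Y left out. It was 0 at an adjusted p under 0.05, 0 with the 4 DNTTIP1 libraries fitted alone (1291 genes at an unadjusted p under 0.05), 0 with median-of-ratios scaling over those 4, also fitted alone, and 0 with edgeR on those 4, added after seeing the data. It was 8 without trend and robust estimation, 206 with DESeq2 and 288 with DESeq2 on the 4 libraries, also added later. Leaving out 1 library gave 0 to 4 genes, and the cause was not tested. A library left alone in its group was taken to vary as the other groups do.

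For Dnttip1, leaving out single libraries gave log2 fold changes of -1.34 to -1.15, called only without MIDEAS-/- replicate 1. It was -1.25 and uncalled with no filter, -1.25 with the 4 libraries alone, -1.25 with median-of-ratios over them and -1.26 with edgeR on them. The difference between the knockouts gave 0 genes under each alternative run except DESeq2, with 12 (0 to 0 when 1 library was left out). Hdac1 ranged from -0.0027, without DNTTIP1-/- replicate 2, to 0.0635, without DNTTIP1-/- replicate 1.

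The replicate number was also fitted as a block. Same-numbered libraries deviated together in the DNTTIP1 family (r = 0.67 across genes, 0.65 without X and Y) but not in the MIDEAS family (0.23, -0.12 and 0.0082), and the labels give numbers only. With the block 84 genes were called (66 higher, 18 lower), 26 with the block in edgeR and 3041 with the block on the 4 libraries alone, all including the same 5. The last of these fits has almost no residual degrees of freedom of its own. Of its 3041 genes, 408 differed by at least 1 on the log2 scale in one direction within both numbers. Depth limits genes near the minimum of 10, and intervals for counts of 0 cover counting error only.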
